A study of Mus musculus with 12 samples.

Results

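The Serpin family was followed in the esophagus and the liver of mice with and without an inducible Nanog transgene. Its members were all non-control probes whose RefSeq accession maps to a mouse gene symbol made of Serpin, a clade letter from a to i and a number. RefSeq lists 64 such genes, of which 52 were matched to the array by 64 probes, out of 16535 genes named by 23374 probes. Clade a held 16 of the 52 genes, clade b 26, clades e, f and i 2 each, and clades c, d, g and h 1 each. The 12 genes with no matched probe included Serpina1a, Serpina1b and Serpina1e, which are therefore not analysed here.

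Serpins are proteins of a shared fold, most of which inhibit proteases by offering an exposed loop as bait and trapping the protease that cuts it. Clade a and the single-letter clades c, d, f and g are best known as proteins that hepatocytes secrete into plasma, where they restrain coagulation, fibrinolysis, complement and neutrophil proteases. Clade b, the ov-serpins, lacks a classical signal peptide and acts mostly inside cells, many of them in layered epithelia and leukocytes. Some members inhibit nothing and instead carry hormones or fold collagen.

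Total RNA came from 6 male mice of mixed 129Sv/C57BL6 background, about 8 months old, with 1 array per organ and mouse. The groups were esophagus TG, esophagus CTR, liver TG and liver CTR, with 3 mice each. TG mice carried 1 copy of Nanog under a tetracycline operator at the Col1a1 locus together with the Rosa26 rtTA activator, and CTR mice carried the activator with both Col1a1 alleles unaltered. All mice, CTR included, drank doxycycline at 0.2 mg/ml in 7.5% sucrose for 48 h. Rosa26 drives the activator in most cell types, so the transgene was not aimed at a single cell type of either organ. The study addressed Nanog, a transcription factor of pluripotent embryonic cells, in adult layered epithelium. Both organs came from the same mice. The esophagus RNA was purified with a kit for fibrous tissue and the liver RNA with Trizol followed by a column. The effect of the organ and that of the extraction cannot be told apart.

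Levels are log2 processed signals relative to the 75th percentile of their array, so that 0 is the level of a probe brighter than 75% of its array. The share of probes well above background ranged from 56.5% on liver CTR3 to 81.8% on liver TG3. The probe for Nanog itself stayed at background on all 12 arrays, with levels from -8.27 to -7.87 in esophagus TG and from -8.47 to -8.07 in esophagus CTR, and from -7.13 to -5.65 in liver TG and from -7.69 to -6.33 in liver CTR. The array values therefore do not check the genotype labels. All 8 keratinocyte markers were well above background on every esophagus array and all 8 hepatocyte markers on every liver array. Being above background does not by itself mark the organ. Of the keratinocyte markers, 4 to 7 were well above background on a liver TG array and 4 to 6 on a liver CTR array. Their summed level was 1.26 to 1.61 in liver CTR, against 519 to 708 in esophagus CTR. In bulk RNA, fewer cells of a type and less RNA per cell cannot be told apart.

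Of the 52 Serpin genes, 45 had signal well above background throughout the 3 arrays of some group. That count was 37 in esophagus TG, 39 in esophagus CTR, 32 in liver TG and 29 in liver CTR. The 7 that reached it in no group were Serpina1f, Serpinb3d and 5 of the Serpinb9 cluster, namely Serpinb9b, Serpinb9c, Serpinb9d, Serpinb9f and Serpinb9g. Serpinb3d, Serpinb9b and Serpinb9d were not well above background on any array. Only the 45 detected genes were tested between organs, and a gene detected in 1 organ alone passed through the organ in which it was high.

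**Figure D1:**
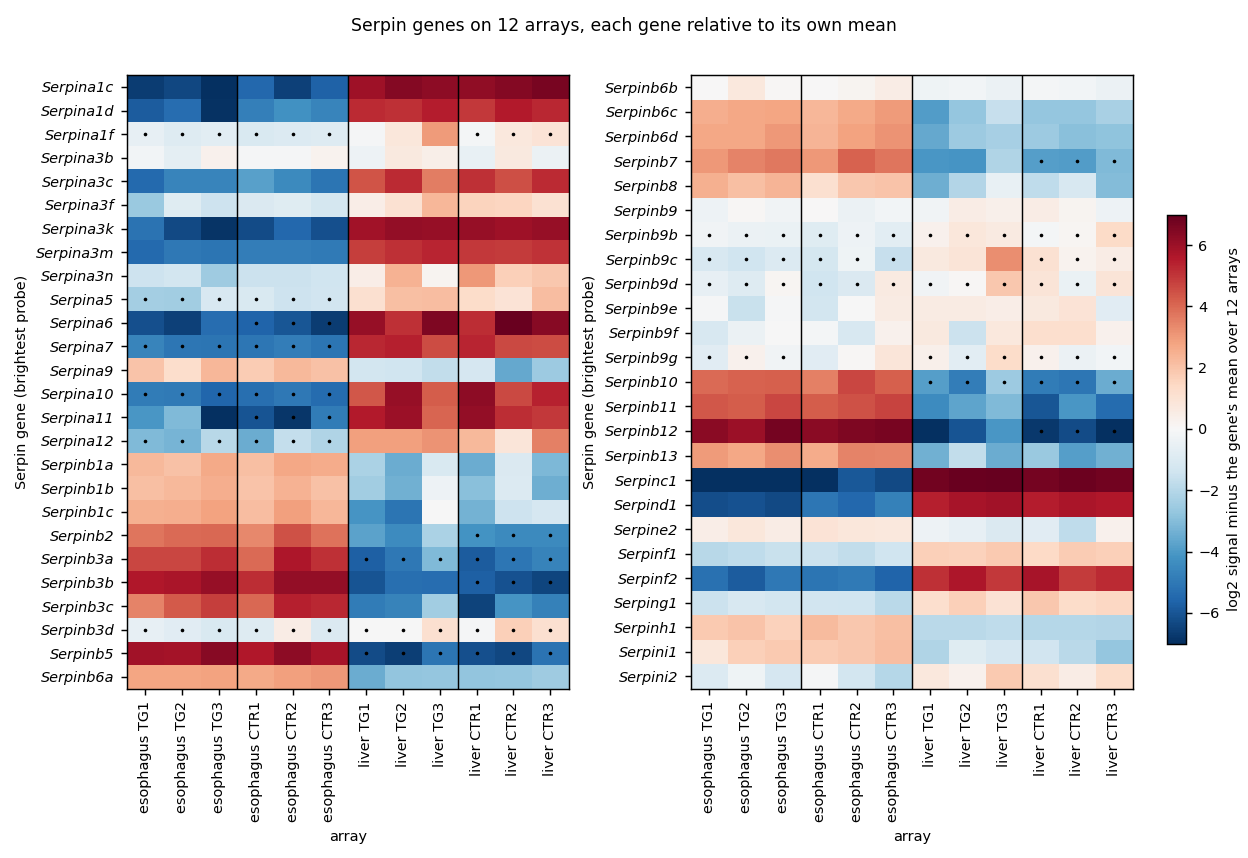
Level of 51 of the 52 Serpin genes (rows, brightest probe of each) on the 12 arrays (columns), as log2 signal minus the gene's own mean over the arrays; red is above and blue below that mean, and a dotted group had no array well above background. Most clade a genes are red in both liver groups, most clade b genes are red in both esophagus groups, and TG and CTR columns of an organ look alike.

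Esophagus and liver divided the family along clade lines. In TG mice 22 of the 45 tested genes were higher in esophagus and 19 lower, and in CTR mice the counts were again 22 and 19 (limma, adjusted p under 0.05). Over all genes tested, a set that here holds named genes and unnamed probes, 63.5% were called between the organs in TG mice and 62.4% in CTR mice, of which 23.4% higher and 40.2% lower in TG and 26.6% higher and 35.8% lower in CTR. The median log2 difference of the tested Serpin genes was 0.57 in TG mice and 0.49 in CTR mice, against -0.41 in TG and -0.19 in CTR mice for all genes tested. Among the tested members, 22 in TG and 23 in CTR mice were higher on every esophagus array than on any liver array, as were 25.8% of all genes in TG and 30.1% in CTR mice, and 20 in TG and 19 in CTR mice were lower, as were 45.8% of all genes in TG and 38.5% in CTR mice. The family medians join clades that lie apart, since clade a had medians of -9.93 in TG and -9.81 in CTR mice while clade b had 5.78 in TG and 6.0 in CTR mice. The sizes depend on the processing. In the authors' deposited table, which holds log2 values scaled by the authors, clade a had medians of -5.48 in TG and -5.92 in CTR mice. There clade b had medians of 4.81 in TG and 4.92 in CTR mice.

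**Figure D2:**
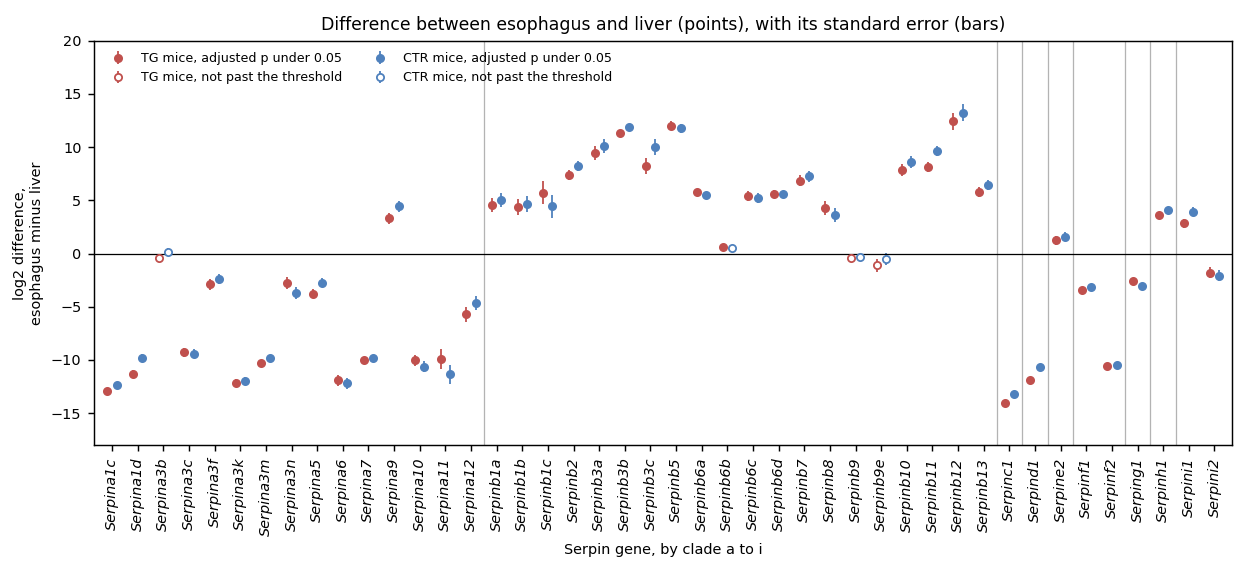
Log2 difference of esophagus minus liver (points) with its standard error (bars) for 44 of the 45 tested Serpin genes, ordered by clade, in TG mice (red) and CTR mice (blue), 3 mice per group; open points did not pass adjusted p under 0.05. Clade a lies mostly below 0 and clade b above it in both genotypes, with Serpina9 the clade a gene above 0.

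In clade a, 13 of 15 tested genes were lower in esophagus than in liver and 1 was higher, in TG and in CTR mice alike. Over all genes tested, 40.2% were called lower in TG mice and 35.8% in CTR mice. Serpina5, Serpina6, Serpina7, Serpina10, Serpina11 and Serpina12 were tested through their liver signal alone. In TG mice this also held for Serpina1c and Serpina3f. For these genes the filter largely set the direction. The alpha-1-antitrypsins, of which the human protein is the main plasma inhibitor of neutrophil elastase, were represented by Serpina1c and Serpina1d. These paralogs are nearly identical and 3 of them had no matched probe, so a probe may also read its neighbours. Serpina1c (NM_009245) had -5.23, -4.93 and -5.72 in esophagus TG and -4.10, -5.14 and -4.26 in esophagus CTR, against 7.34, 7.87 and 7.71 in liver TG and 7.64, 7.83 and 8.06 in liver CTR. Every liver array stood far above every esophagus array, and the difference was -12.93 in TG and -12.34 in CTR mice (SE 0.30 each, limma adjusted p = 1.93e-10 in TG and 2.64e-10 in CTR). Serpina1d (NM_009246) had -1.27, -0.79 and -2.36 in esophagus TG and -0.22, 0.31 and -0.06 in esophagus CTR, against 9.75, 9.66 and 10.05 in liver TG and 9.51, 10.11 and 9.83 in liver CTR. Its signal was well above background on all 12 arrays, and its difference was -11.29 in TG and -9.81 in CTR mice (SE 0.35 each).

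The 250 bases before the start of 3 of these liver-high clade a genes are printed because they hold the letters GTTAAT, the core of the site of HNF1, a transcription factor of hepatocytes. Capitals mark a match on either strand, and each sequence runs 5′ to 3′ towards the gene, from RefSeq on GRCm38.p6. The Serpina3c stretch precedes a transcript start inside the span RefSeq gives for the gene. They lie at chr12:103904951-103905200 on the minus strand for Serpina1c, chr12:103773634-103773883 on the minus strand for Serpina1d and chr12:104153873-104154122 on the minus strand for Serpina3c.
Serpina1c: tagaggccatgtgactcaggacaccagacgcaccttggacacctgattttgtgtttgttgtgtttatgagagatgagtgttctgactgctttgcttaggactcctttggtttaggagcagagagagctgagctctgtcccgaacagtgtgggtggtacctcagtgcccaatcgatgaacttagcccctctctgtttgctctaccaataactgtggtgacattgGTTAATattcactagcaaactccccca
Serpina1d: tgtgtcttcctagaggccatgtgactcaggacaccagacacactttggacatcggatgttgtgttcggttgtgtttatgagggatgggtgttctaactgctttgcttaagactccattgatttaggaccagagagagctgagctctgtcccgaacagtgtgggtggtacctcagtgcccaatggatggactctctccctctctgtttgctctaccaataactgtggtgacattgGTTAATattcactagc
Serpina3c: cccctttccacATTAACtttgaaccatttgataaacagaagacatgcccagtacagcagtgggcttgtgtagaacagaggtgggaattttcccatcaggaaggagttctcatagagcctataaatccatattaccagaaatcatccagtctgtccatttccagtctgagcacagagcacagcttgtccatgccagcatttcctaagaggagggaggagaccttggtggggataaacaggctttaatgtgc

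RefSeq held such a stretch for 54 of the 64 Serpin genes and 43 of the 52 measured ones. GTTAAT occurred in 5 of the 14 with a called lower level in CTR esophagus (Serpina1c, Serpina1d, Serpina3c, Serpina7 and Serpini2) and in 2 of the 18 with a called higher level (Serpinb3b and Serpinb8), and 6.43% of all 32851 promoter stretches held it. It also occurred in Serpina1a, Serpina1b and Serpina1e, which were not measured. The printed Serpina1c and Serpina1d stretches read alike around the match, so these paralogs do not count as separate occurrences. In Serpina1c the match covers bases 27 to 22 before the start and in Serpina1d bases 16 to 11. In Serpina3c it lies at bases 239 to 234, in the opposite orientation. The letters were 1 of 15 spellings searched, and a match is a description of the sequence.

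The Serpina3 genes, mouse relatives of human alpha-1-antichymotrypsin, an inhibitor of cathepsin G, followed the alpha-1-antitrypsins with 5 of 6 tested genes lower in esophagus in both genotypes. Serpina3k (NM_011458) differed by -12.16 in TG and -12.01 in CTR mice, and a further probe of the gene gave -13.37 in CTR mice. Serpina3m differed by -10.28 in TG and -9.83 in CTR mice, and Serpina3c by -9.30 in TG and -9.40 in CTR mice. Serpina3b was the exception, with -0.46 in TG mice (SE 0.38, limma adjusted p = 0.309) and 0.14 in CTR mice (SE 0.38, limma adjusted p = 0.766), and its arrays overlapped between the organs. Serpina3n (NM_009252), an acute phase member, was present in both organs, with 0.18, 0.31 and -0.87 in esophagus TG and 0.08, 0.12 and 0.19 in esophagus CTR, against 2.09, 4.03 and 1.79 in liver TG and 4.62, 3.30 and 3.48 in liver CTR. All esophagi lay below all livers, with a difference of -2.76 in TG mice (SE 0.57, limma adjusted p = 0.00167) and -3.67 in CTR mice (SE 0.57, limma adjusted p = 0.00025).

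The hormone carriers of clade a were at background in the esophagus. Serpina6 (NM_007618), corticosteroid-binding globulin, had -6.45, -6.85 and -5.64 in esophagus TG and -5.89, -6.29 and -6.95 in esophagus CTR, against 5.81, 4.83 and 6.22 in liver TG and 4.84, 6.59 and 6.08 in liver CTR. It was well above background on 1 of 3 esophagus TG arrays and on no esophagus CTR array, so it was at least 3830-fold lower in CTR esophagus than in CTR liver. Serpina7 (NM_177920), thyroxine-binding globulin and the sole X-linked member measured, was at background on every esophagus array and was at least 283-fold lower in TG and at least 253-fold lower in CTR esophagus than in liver of the same genotype. A bound of this kind sets the mean of the bright group against the dim arrays. Each dim array enters with the probe's own signal, raised to the array's lowest signal well above background where it lay below that. The bounds hold for the main processing only, here and wherever one is given below. Across the other settings the log2 difference in CTR mice shrank to -8.59 for Serpina6 and -5.2 for Serpina7, smaller folds than these bounds.

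Serpina10, the protein Z-dependent inhibitor of factor Xa, was likewise at background in esophagus and at least 250-fold lower in TG and at least 386-fold lower in CTR mice. Serpina11 was at least 1130-fold lower in CTR esophagus, while 2 of 3 TG esophagi were well above background and the fitted difference there was -9.93 (SE 0.92). Under other settings the log2 difference in CTR mice shrank to -5.92 for Serpina10 and -7.27 for Serpina11, smaller folds than their bounds. Serpina12, the adipokine vaspin, was at least 21.8-fold lower in TG and at least 14.0-fold lower in CTR esophagus. Serpina5, the protein C inhibitor, was at least 4.63-fold lower in TG and at least 3.94-fold lower in CTR esophagus. Serpina9 went the other way. Known in humans from germinal centre B cells, Serpina9 (NM_027997) had 2.61, 1.86 and 2.94 in esophagus TG and 2.36, 2.85 and 2.63 in esophagus CTR, against -0.68, -0.77 and -1.09 in liver TG and -0.56, -2.96 and -1.92 in liver CTR. All esophagi exceeded all livers, by 3.31 in TG mice (SE 0.51, limma adjusted p = 0.000218) and 4.43 in CTR mice (SE 0.51, limma adjusted p = 2.63e-05).

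Clades c, d, f and g, each with plasma proteins made by the liver, were lower in esophagus in all 5 genes tested. Serpinc1 (NM_080844), antithrombin, had -5.69, -5.19 and -5.21 in esophagus TG and -5.18, -4.07 and -4.47 in esophagus CTR, against 8.61, 8.76 and 8.80 in liver TG and 8.54, 8.71 and 8.61 in liver CTR. The organs were far apart in every mouse, and the difference was -14.09 in TG and -13.19 in CTR mice (SE 0.26 each, limma adjusted p = 6.43e-11 in TG and 8.51e-11 in CTR), while a further, dimmer probe gave -9.07 in CTR mice. Serpind1 (NM_008223), heparin cofactor II, which inhibits thrombin, differed by -11.91 in TG and -10.70 in CTR mice (SE 0.21 each). Serpinf2 (NM_008878), alpha-2-antiplasmin, differed by -10.59 in TG and -10.52 in CTR mice (SE 0.31 each).

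Serping1 and Serpinf1 were liver-high to a smaller degree, with strong signals in both organs. Serping1 (NM_009776), the C1 inhibitor of complement and the contact system, had 2.70, 3.08 and 2.89 in esophagus TG and 2.86, 2.81 and 2.29 in esophagus CTR, against 5.34, 5.85 and 5.18 in liver TG and 6.07, 5.47 and 5.61 in liver CTR. The organs did not overlap, and the difference was -2.56 in TG and -3.06 in CTR mice (SE 0.25 each, limma adjusted p = 7.56e-06 in TG and 1.88e-06 in CTR). Serpinf1 (NM_011340), pigment epithelium-derived factor, a secreted serpin that inhibits no protease, differed by -3.45 in TG and -3.16 in CTR mice (SE 0.17 each). The proteases these serpins meet in plasma moved the same way, with 13 of 13 tested genes of coagulation, fibrinolysis and the start of complement lower in esophagus in each genotype. Over all genes tested, 40.2% were called lower in TG mice and 35.8% in CTR mice. The 13 proteases had a median of -8.19 in TG and -7.98 in CTR mice. Among them, F2, prothrombin, differed by -13.71 in TG and -12.36 in CTR mice, F12 by -11.93 in CTR mice and Masp2, a protease of the lectin pathway, by -7.98 in CTR mice. F12, Klkb1 and Plg were tested through their liver signal alone, so the filter largely set their direction.

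Clade b gave the mirror picture. In TG mice 18 of its 20 tested genes were higher in esophagus, in CTR mice 17 of 20, and in neither genotype was 1 lower. The 11 tested genes of the chromosome 1 cluster were all called higher in both genotypes, with medians of 8.16 in TG and 9.64 in CTR mice. No gene of this cluster was well above background on all 3 CTR livers, and on all 3 TG livers only Serpinb8 and Serpinb11 were. The others were tested through their esophagus signal alone, as all were in CTR mice, so the filter largely set their direction. Serpinb5 (NM_009257), maspin, a serpin of basal epithelial cells without known protease inhibition, had 5.02, 4.97 and 5.47 in esophagus TG and 4.73, 5.38 and 4.88 in esophagus CTR, against -7.14, -7.47 and -5.97 in liver TG and -7.05, -7.26 and -6.05 in liver CTR. No liver array was well above background for it, and by the main processing it was at least 1170-fold higher in TG and at least 1040-fold higher in CTR esophagus than in liver. Across the other settings its log2 difference fell to 8.27 in TG and 8.09 in CTR mice, smaller folds than these bounds. Serpinb12 (NM_027971) had 7.16, 6.85 and 7.51 in esophagus TG and 7.16, 7.36 and 7.49 in esophagus CTR, against -7.44, -5.19 and -3.22 in liver TG and -5.92, -5.42 and -6.30 in liver CTR. The esophagi were tightly grouped and the livers were not. It was at least 4950-fold higher in CTR esophagus, and in TG mice, with 1 of 3 livers well above background, the difference was 12.45 (SE 0.80). Its log2 difference in CTR mice fell to 10.49 under other settings, a smaller fold than this bound.

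The 250 bases before the start of 4 genes of this cluster are printed because they hold TGANTCA, searched as a loose AP-1 spelling. AP-1 is made of Fos and Jun proteins and active in layered epithelium, and its usual site has C or G at N. Every match marked below reads TGAATCA or TGATTCA, with A or T there. Capitals mark a match on either strand, again from RefSeq on GRCm38.p6 and 5′ to 3′. The Serpinb2 stretch precedes a transcript start inside the span RefSeq gives for the gene, not the start of that span. They lie at chr1:106860925-106861174 on the plus strand for Serpinb5, chr1:106934199-106934448 on the plus strand for Serpinb12, chr1:107511173-107511422 on the plus strand for Serpinb2 and chr1:107362064-107362313 on the plus strand for Serpinb11.
Serpinb5: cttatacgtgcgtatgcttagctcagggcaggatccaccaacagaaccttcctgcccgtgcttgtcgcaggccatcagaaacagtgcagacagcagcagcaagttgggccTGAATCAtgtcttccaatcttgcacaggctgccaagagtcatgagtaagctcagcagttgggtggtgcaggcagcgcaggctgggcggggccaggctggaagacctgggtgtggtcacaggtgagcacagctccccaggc
Serpinb12: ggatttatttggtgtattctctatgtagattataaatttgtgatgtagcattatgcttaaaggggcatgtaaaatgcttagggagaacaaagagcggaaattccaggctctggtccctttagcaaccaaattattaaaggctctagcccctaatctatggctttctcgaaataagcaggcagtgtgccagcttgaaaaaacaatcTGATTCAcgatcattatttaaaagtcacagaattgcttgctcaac
Serpinb2: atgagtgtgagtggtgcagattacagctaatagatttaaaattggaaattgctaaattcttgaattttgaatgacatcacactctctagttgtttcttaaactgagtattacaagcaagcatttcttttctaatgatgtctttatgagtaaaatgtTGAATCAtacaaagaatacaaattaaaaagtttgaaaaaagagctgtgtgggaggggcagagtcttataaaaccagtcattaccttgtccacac
Serpinb11: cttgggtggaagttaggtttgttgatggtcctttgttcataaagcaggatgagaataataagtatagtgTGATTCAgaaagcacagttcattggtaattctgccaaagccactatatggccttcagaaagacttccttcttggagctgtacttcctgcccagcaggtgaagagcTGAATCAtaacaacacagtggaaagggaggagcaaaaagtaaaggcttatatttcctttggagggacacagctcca

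The letters TGANTCA occurred in 7 of the 18 genes with a called higher level in CTR esophagus, all on chromosome 1 (Serpinb2, Serpinb5, Serpinb7, Serpinb8, Serpinb10, Serpinb11 and Serpinb12). They occurred in 2 of the 14 with a called lower level, Serpina1c and Serpina1d, and in 6.75% of all promoter stretches. In the printed Serpina1c and Serpina1d stretches the match reads TGACTCA, with C at N, and is not capitalised above. Serpinb5 has its match at bases 140 to 134 before the start, Serpinb12 at 45 to 39 and Serpinb2 at 94 to 88, while Serpinb11 has a pair, at 181 to 175 and at 76 to 70. The letters TTGCNNAA, of the C/EBP type, occurred in 2 of the 18 esophagus-high genes, in 5 of the 14 liver-high genes and in 9.56% of all promoter stretches. The TATA box TATAAA occurred in 7 of the 18, in 4 of the 14 and in 12.4% of all stretches. The HNF4-type CAAAGTNCA, the forkhead site TGTTTAC and a p63 half-site pair occurred in 0 of the 18 and 0 of the 14. Their shares over all stretches were 1.19%, 3.17% and 0.49%. The remaining spellings searched are not listed here.

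The Serpinb3 genes are mouse counterparts of the human squamous cell carcinoma antigens, inhibitors of cathepsins in squamous epithelium. Serpinb3b (NM_198680) had 5.86, 5.99 and 6.36 in esophagus TG and 5.46, 6.44 and 6.43 in esophagus CTR, against -5.77, -4.99 and -5.03 in liver TG and -5.43, -5.81 and -6.14 in liver CTR. It was at least 2250-fold higher in CTR esophagus and differed by 11.33 (SE 0.32) in TG mice, where 1 liver was well above background. Serpinb3a was at least 345-fold higher in TG and at least 367-fold higher in CTR esophagus, and Serpinb3c differed by 8.21 in TG and 10.02 in CTR mice (SE 0.77 each), with 1 of 3 livers of each genotype well above background. Other settings gave CTR differences down to 9.19 for Serpinb3b and 6.54 for Serpinb3a, smaller folds than their bounds. Near-identical paralogs can share signal, so the split among them is uncertain.

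Further genes of the chromosome 1 cluster kept the direction. Serpinb2, plasminogen activator inhibitor 2, was at least 153-fold higher in CTR esophagus and differed by 7.37 (SE 0.48) in TG mice. Serpinb10 was at least 91.1-fold higher in TG and at least 91.0-fold higher in CTR esophagus. Serpinb7 was at least 74.4-fold higher in CTR esophagus and differed by 6.85 (SE 0.52) in TG mice. With other settings the CTR differences fell to 5.3 for Serpinb2, 4.77 for Serpinb10 and 4.3 for Serpinb7, smaller folds than their bounds. For each of Serpinb2 and Serpinb7, 1 of 3 TG livers was well above background. Serpinb13 differed by 5.82 in TG and 6.46 in CTR mice (SE 0.48 each), with 1 of 3 livers of each genotype well above background, and by 3.50 in TG and 3.93 in CTR mice with normexp, another background correction. Serpinb11 (NM_025867) had 4.0, 3.92 and 4.33 in esophagus TG and 3.92, 4.11 and 4.4 in esophagus CTR, against -4.73, -4.05 and -3.45 in liver TG and -6.35, -4.42 and -5.73 in liver CTR. It differed by 8.16 in TG and 9.64 in CTR mice (SE 0.46 each), and 3 of 3 TG livers and 1 of 3 CTR livers were well above background.

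The chromosome 13 cluster of clade b, where the inhibitors of neutrophil proteases and granzyme B lie, was less uniform. In TG mice 7 of its 9 tested genes were higher in esophagus and in CTR mice 6 of 9, with medians of 4.58 in TG and 4.62 in CTR mice. Serpinb1a, an inhibitor of neutrophil elastase, and its paralogs Serpinb1b and Serpinb1c differed by 4.58, 4.36 and 5.70 in TG mice and by 5.02, 4.62 and 4.45 in CTR mice. Serpinb1b was well above background in 2 of 3 livers of each genotype, and Serpinb1c in 1 of 3 TG and 3 of 3 CTR livers. Serpinb6a, Serpinb6c and Serpinb6d, relatives of a human inhibitor of cathepsin G, differed by 5.75, 5.41 and 5.63 in TG mice and by 5.49, 5.20 and 5.55 in CTR mice, and 2 of 3 livers of each genotype were well above background for Serpinb6d. Serpinb6b differed by 0.57 in TG mice (SE 0.22, limma adjusted p = 0.0429) and 0.49 in CTR mice (SE 0.22, limma adjusted p = 0.0775), and the TG call was lost with the mouse as a block (adjusted p = 0.0643).

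Serpinb9, the mouse counterpart of the human granzyme B inhibitor, was similar in both organs and its probes disagreed. The brighter probe had -3.36, -2.92 and -3.24 in esophagus TG and -2.96, -3.41 and -3.18 in esophagus CTR, against -3.24, -2.49 and -2.65 in liver TG and -2.48, -2.81 and -3.38 in liver CTR. The organs overlapped, with a difference of -0.38 in TG and -0.29 in CTR mice (SE 0.27 each, limma adjusted p = 0.246 in TG and 0.386 in CTR). The dimmer probe gave 0.37 in TG and 0.57 in CTR mice, and neither probe passed. Serpinb9e differed by -1.11 in TG (SE 0.58, limma adjusted p = 0.116) and -0.51 in CTR mice (SE 0.58, limma adjusted p = 0.461). Serpinb8, at the end of the chromosome 1 cluster and in humans an inhibitor of furin, differed by 4.31 in TG and 3.64 in CTR mice (SE 0.67 each).

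**Figure D3:**
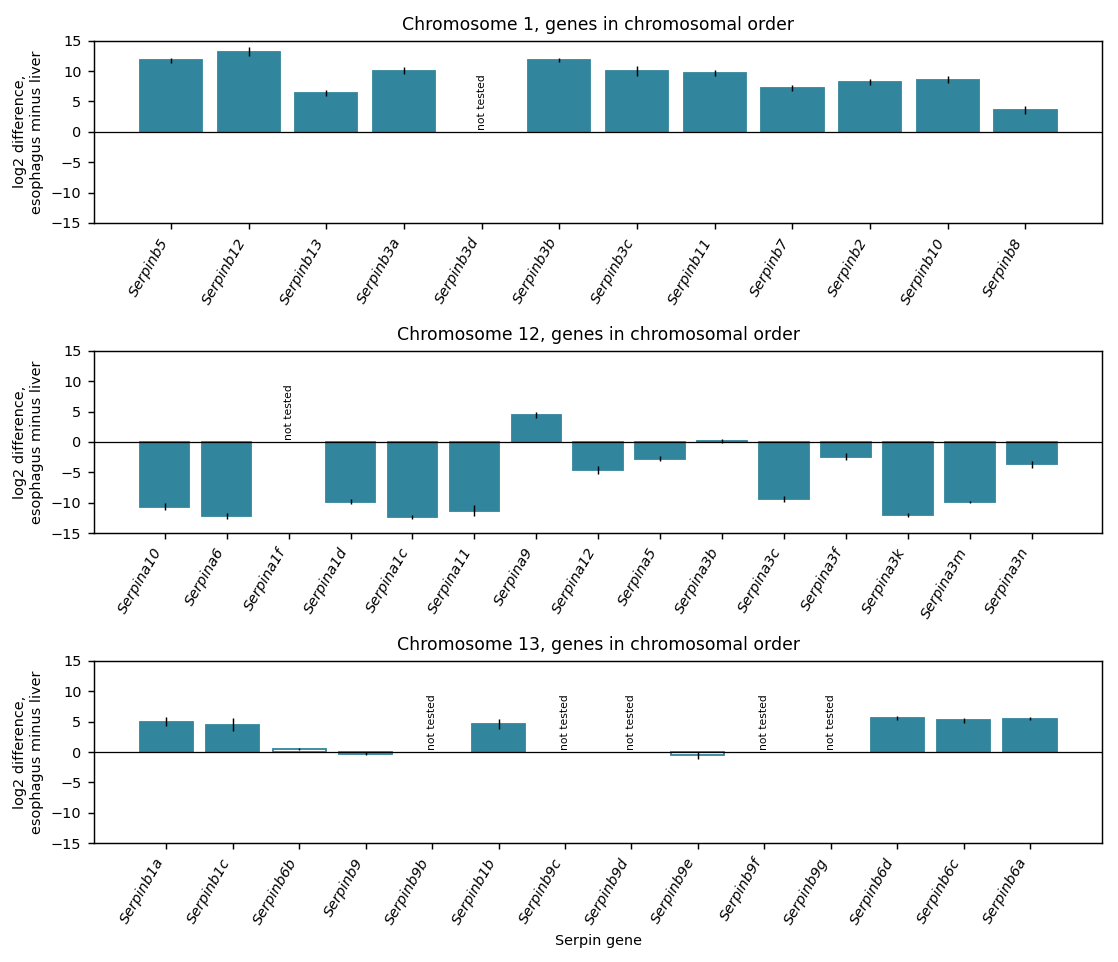
Log2 difference of esophagus minus liver in CTR mice (bars, standard error as lines, 3 mice per group) for the clade a and b genes of chromosomes 1, 12 and 13 in chromosomal order; open bars did not pass adjusted p under 0.05. Every tested bar on chromosome 1 points up, 12 of 14 tested on chromosome 12 are called down, and chromosome 13 holds called bars beside ones near 0.

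Serpinh1, Serpine2 and Serpini1 were called higher in esophagus in both genotypes, and Serpini2 lower. Serpinh1 (NM_009825), Hsp47, the chaperone of collagen in the endoplasmic reticulum, had 4.98, 5.14 and 4.79 in esophagus TG and 5.39, 5.05 and 5.28 in esophagus CTR, against 1.26, 1.28 and 1.41 in liver TG and 1.17, 1.15 and 1.13 in liver CTR. The organs were well separated, by 3.66 in TG and 4.09 in CTR mice (SE 0.15 each, limma adjusted p = 1.32e-08 in TG and 5.66e-09 in CTR). All 7 collagen genes listed as its clients were higher in esophagus in both genotypes, with medians of 4.47 in TG and 4.79 in CTR mice, and Col1a2 differed by 5.11 and Col5a2 by 5.43 in CTR mice. Col5a2 was tested through its esophagus signal alone. Over all genes tested, 23.4% were called higher in TG mice and 26.6% in CTR mice. The transgene of TG mice sits in Col1a1, which differed by 6.05 in CTR mice. The summed level of 6 fibroblast markers, 3 of them collagens of that list, ran from 269 to 334 in esophagus TG and from 273 to 325 in esophagus CTR, against 42.0 to 59.8 in liver TG and 32.5 to 49.4 in liver CTR. The part of these cells in the Serpinh1 difference was not tested.

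Serpine2 (NM_009255), protease nexin 1, an inhibitor of thrombin and urokinase, differed by 1.25 in TG (SE 0.42, limma adjusted p = 0.0228) and 1.57 in CTR mice (SE 0.42, limma adjusted p = 0.00732). The TG call was lost without liver TG3 (adjusted p = 0.0715) and without esophagus TG2 (adjusted p = 0.069).

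Of the 5 genes listed for plasminogen activation, 3 were higher in esophagus and 2 lower in each genotype. In CTR mice Plat, tissue plasminogen activator, differed by 4.14, while Vtn, vitronectin, an adhesive plasma protein, differed by -7.76 and Lrp1, a clearance receptor for serpin and protease complexes, by -1.80. Serpini1 (NM_009250), neuroserpin, had -2.55, -1.66 and -1.52 in esophagus TG and -1.59, -1.45 and -1.21 in esophagus CTR, against -5.48, -4.22 and -4.53 in liver TG and -4.69, -5.26 and -6.07 in liver CTR. It was higher in esophagus by 2.83 in TG and 3.92 in CTR mice (SE 0.42 each). Only 1 of 3 livers of each genotype was well above background, and the difference was 1.11 in TG and 1.73 in CTR mice with normexp. Serpini2 differed by -1.79 in TG and -2.09 in CTR mice (SE 0.51 each).

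Other listed proteases, not all of them targets of serpins, were mixed between the organs. Of the leukocyte and mast cell proteases, 3 of 6 tested were higher and 2 lower in TG mice, and 4 of 7 higher and 2 lower in CTR mice. In CTR mice Cpa3, a metallocarboxypeptidase of mast cells and no serpin target, differed by 4.68, Mcpt4 by 3.34 and Cma1, a chymase, by 2.72. Of 5 cysteine cathepsins, targets of the Serpinb3 type, 1 was higher and 3 lower in each genotype, with Ctsh at -3.11, Ctsl at -1.59 and Ctsk at 4.91 in CTR mice. The membrane serine proteases gave 2 higher and 1 lower of 4 in TG mice and 2 higher and 2 lower in CTR mice. There St14, matriptase of epithelial cells, differed by 4.84, Prss8 by 2.16 and Hpn, hepsin, a hepatocyte protease, by -7.26 in CTR mice.

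Between TG and CTR esophagus no Serpin gene passed. Of 39 tested, 0 were called higher and 0 lower by limma, as for 0% of all 23205 named genes and unnamed probes tested, and 4 had an unadjusted p under 0.05, against 3.88% of all genes. The median difference was -0.16, against 0.01 for all genes, and 28 of the 39 had a lower mean in TG and 11 a higher one, against 50.8% of all genes with a higher one. The members with the smallest p were liver-high genes. Serpind1 had -4.80, -4.72 and -4.92 in esophagus TG, against -3.67, -4.10 and -3.36 in esophagus CTR. All TG arrays lay below all CTR arrays, and the difference of -1.11 (SE 0.21) did not pass (limma adjusted p = 0.572). Such separation was seen for 5 of the 39 genes in this direction, among them Serpina1d, Serpina3m, Serpinc1 and Serpind1, against 5.75% of all genes, and for the brighter Serpinb8 probe alone in the other, against 6.83% of all genes.

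Serpina1d, with the esophagus levels given above, differed by -1.49 (SE 0.35, limma adjusted p = 1). Serpinc1 differed by -0.79 (SE 0.26, limma adjusted p = 1), with CTR1 close to the TG arrays, while its other probe, well above background on all 12 arrays, differed by -0.06 (SE 0.36). Serpina1c, the remaining gene with an unadjusted p under 0.05, also differed by -0.79 (SE 0.30, limma adjusted p = 1). All 9 tested clade a genes had a lower mean in TG, with a median of -0.32. Of these, Serpina1c and Serpina3f were tested through CTR alone, the group in which they were higher. Among the clade a genes not tested here, Serpina1f, Serpina6, Serpina7, Serpina10 and Serpina11 had higher means in TG, and Serpina5 and Serpina12 lower ones. The filter thus had a part in the shared direction. On the slide that held an esophagus of each genotype, Serpina1d differed by -1.58, Serpinc1 by -1.62 and Serpind1 by -0.70.

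Hepatocyte markers moved in the same direction in these esophagi. Alb, albumin, had -4.67, -5.63 and -4.90 in esophagus TG, against -3.35, -1.31 and -1.41 in esophagus CTR, a difference of -3.04 (SE 0.47, limma adjusted p = 0.313). F2, from the list of plasma cascade proteases, had -4.48, -4.41 and -4.72 in esophagus TG, against -3.58, -3.10 and -3.18 in esophagus CTR, a difference of -1.25 (SE 0.20, limma adjusted p = 0.313). Both were lower on every TG array. The 10 proteases of that list tested in esophagus had a median of -0.16, and F7 at 0.27, F11 at 0.11 and Masp1 at 0.04 had higher means in TG. Of the 8 hepatocyte markers, 4 to 6 were well above background on an esophagus TG array and 6 to 7 on an esophagus CTR array, with a summed level of 0.98 to 2.58 in TG and 1.94 to 3.10 in CTR, and Ttr, transthyretin, was at background on all of them. The 6 tested had lower means in TG, with a median of -0.97, and of these Alb, Apob and Apoh were tested through CTR alone. Among the other marker lists, the 4 heart markers had a summed level of 7.39 to 8.82 in TG and 14.5 to 156 in CTR, without overlap. The sums overlapped for the 5 airway markers, at 0.873 to 102 in TG and 27.0 to 239 in CTR, and for the 6 adipocyte markers, at 29.6 to 110 in TG and 85.6 to 139 in CTR. Per2, a circadian clock gene chosen after the values were seen, had -3.01, -2.55 and -0.80 in esophagus TG, against -0.50, 0.16 and 0.17 in esophagus CTR. The part of any of these in the Serpin differences was not tested.

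In the direction of higher levels in TG esophagus, the 3 smallest p were those of Serpinb8 (0.64, SE 0.67, limma adjusted p = 1), Serping1 (0.24, SE 0.25, limma adjusted p = 1) and Serpini2 (0.28, limma adjusted p = 1). Serpinb8 had 1.36, 0.97 and 1.27 in esophagus TG, against -0.01, 0.79 and 0.89 in esophagus CTR, with CTR1 the lowest. Its other probe had the opposite sign, at -0.17 (SE 0.38). The 10 tested epithelial ov-serpins had a median difference of -0.06, and the Serpinb5 arrays overlapped. The keratinocyte markers had summed levels of 517 to 722 in esophagus TG and 519 to 708 in esophagus CTR. The 6 leukocyte markers, whose cells hold proteases that clade b restrains, summed to 1.22 to 3.36 in TG and 3.05 to 4.35 in CTR.

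**Figure D4:**
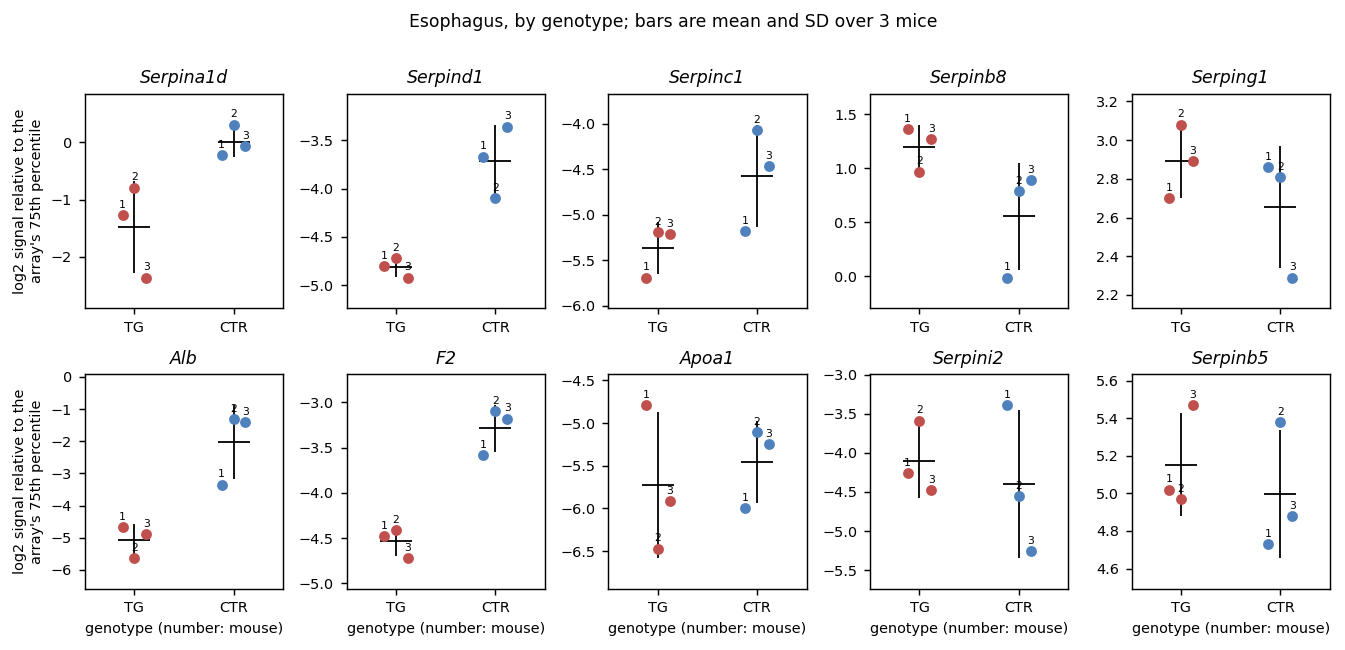
Levels on the 3 TG and 3 CTR esophagus arrays (points, numbered by mouse; log2 signal relative to the array's 75th percentile; bars are mean and SD) of the Serpin genes with the smallest p per direction, of Serpinb5, and of the liver transcripts Alb, F2 and Apoa1. Serpina1d, Serpind1, Serpinc1, Alb and F2 are lower on all 3 TG arrays than on any CTR array, while Apoa1, Serpini2 and Serpinb5 overlap.

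In liver 33 Serpin genes were tested between TG and CTR, and 0 were called in either direction by limma, as for 0% of all 21247 named genes and unnamed probes tested. Only Serpinb11 had an unadjusted p under 0.05, against 7.61% of all genes. The median difference was 0.00, against 0.13 for all genes, and 17 of the 33 had a higher mean in TG, against 66.7% of all genes. Serpinh1 alone, at 0.17, was higher on every TG than on any CTR array, against 8.6% of all genes, and none was lower, against 2.81%. Serpinb11, dim in liver, differed by 1.43 (SE 0.46, limma adjusted p = 0.651) with overlapping groups, and only 1 of 3 CTR livers was well above background. Next in that direction were Serpina9 at 0.97 (SE 0.51, limma adjusted p = 0.662) and Serpina12 at 0.74 (SE 0.66, limma adjusted p = 0.745). In the other direction Serpina3n differed by -1.16 (SE 0.57, limma adjusted p = 0.656), Serpinb6a by -0.32 (SE 0.22, limma adjusted p = 0.684) and Serpina3c by -0.53 (SE 0.45, limma adjusted p = 0.736).

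Mice of the same genotype differed from each other in several liver serpins. For Serpina3n, TG2 at 4.03 and CTR1 at 4.62 were the highest livers, and the same mice were highest for Serpina10, at 3.10 and 3.28, against 1.25 to 2.36 in the other livers. They were the lowest for Serpina6, at 4.83 and 4.84. Counted over the 33 genes, TG2 and CTR1 were the top pair of the 6 livers for 7 and the bottom pair for 4. Per2 was at -1.77 in TG2 and -1.64 in CTR1, against 0.63 to 1.23 in the other livers. The pair TG3 and CTR3, the arrays with the most and the fewest probes above background, was at the top for 6 and at the bottom for 4. Times of collection were not analysed here, and the part of the clock in these values was not tested.

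**Figure D5:**
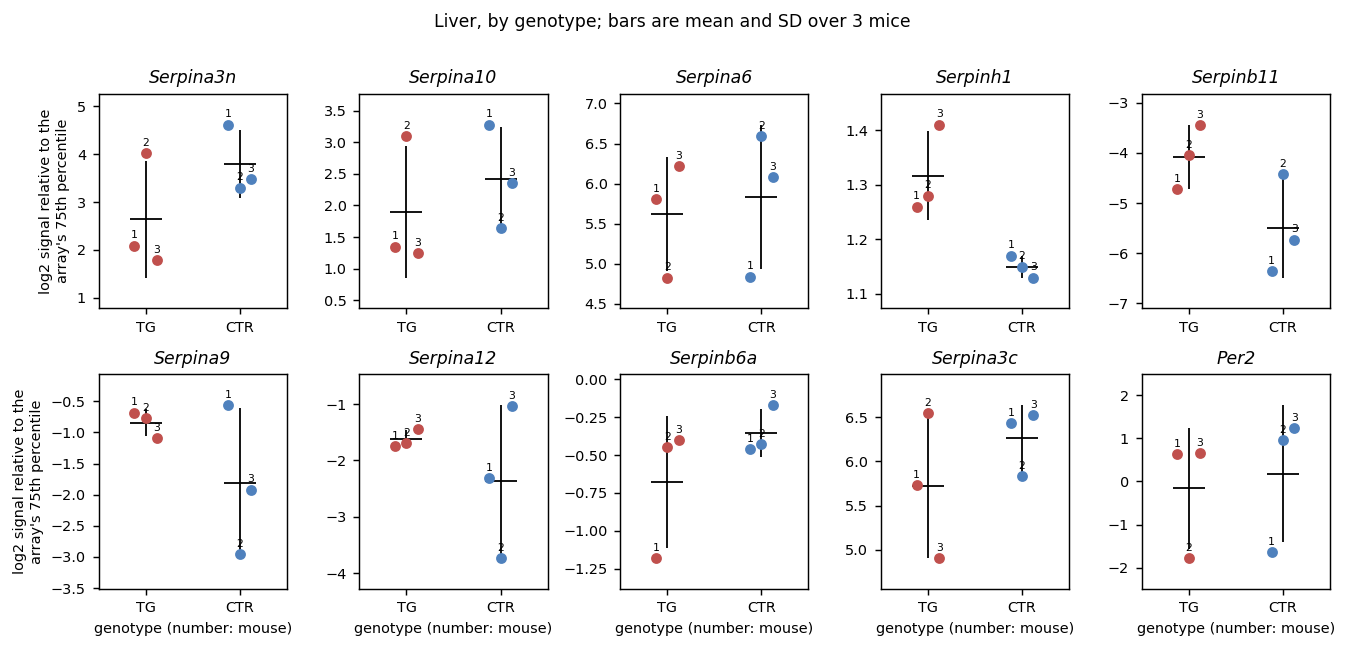
Levels on the 3 TG and 3 CTR liver arrays (points, numbered by mouse; log2 signal relative to the array's 75th percentile; bars are mean and SD) of Serpin genes with the smallest p per direction, of Serpina10, Serpina6 and Serpinh1, and of the clock gene Per2. Groups overlap in every panel except that of Serpinh1, and TG2 and CTR1 lie together at the top for Serpina3n and Serpina10 and at the bottom for Serpina6 and Per2.

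The genotype difference in esophagus minus that in liver was tested for 45 Serpin genes, of which 0 passed in limma, as for 0% of all 24436 named genes and unnamed probes tested, and 4 had an unadjusted p under 0.05, against 4.86% of all genes. The smallest p were those of Serpind1 at -1.21 (SE 0.29), Serpina1d at -1.49 (SE 0.50) and Serpinc1 at -0.90 (SE 0.37), each with a limma adjusted p of 0.953. In the other direction came Serping1 at 0.50 (SE 0.35), Serpina3n at 0.91 (SE 0.81) and Serpina11 at 1.42 (SE 1.30). Each genotype comparison enters this value, so it is no independent evidence for them.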

How the data were processed

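Each of the 12 samples is 1 single-colour Agilent array (4x44K, design 14868). The deposited spot intensity values were made with Feature Extraction 10.7.1.1, which subtracted background within each array, per the file headers. A further deposited table holds the authors' own log2 values, each column with a median of 7.27; how they were scaled is not stated, and the submitters' processing notes name limma, giving no version. The well-above-background flags (0 or 1) are those of the deposited files.

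Control spots and 1311 spots flagged as outliers were left out, no spot was saturated, spots of a probe were averaged, and the log2 processed signal was set relative to each array's 75th percentile. Accessions were matched to RefSeq symbols (GRCm38.p6); 17800 unnamed probes stayed as units. The brightest probe stood for a gene. A gene was tested where all 3 arrays of at least 1 group compared were well above background. All arrays entered 1 limma fit (3.58.1, R 4.3.3) of 4 groups with 8 residual degrees of freedom, with two-sided p-values adjusted by Benjamini and Hochberg over all units tested and called below 0.05. The fit was tested on simulated data. The 3 mice per genotype are biological replicates, per the labels. Figures were drawn in Python 3.11.15.

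Same-numbered organs are the same mouse, per the sample descriptions. Deviations of its 2 organs from their group means correlated at -0.0881 to 0.154 over 19971 genes. TG and CTR mice share only a number. The files hold no mean signal, so normexp used the median signal and background.

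Always named were Serpina1a to Serpina1e, Serpina3n, Serpina6, Serpina7, Serpinb5, Serpinc1, Serpind1, Serpine2, Serpinf1, Serpinf2, Serping1, Serpinh1 and Serpini1 where measured, then the 10 largest called differences per direction between organs, the 3 smallest p per direction between genotypes, genes whose probes disagree, and up to 3 genes per partner list. Other genes named, among them the members that did not pass between organs, Alb, Per2 and Col1a1, were chosen after their values were seen. Members and lists were chosen with earlier results of these data known. Arrays of a group correlated at 0.942 to 0.986 and arrays of different organs at 0.776 to 0.817 across genes. The values of 1 member are counted in the totals but not reported here.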

Additional observations from a re-analysis of the deposited data

How the results depend on the processing

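Counts between organs were recomputed leaving out each of the 12 arrays in turn and under 15 other settings. Requiring signal well above background in every group compared left 9 Serpin genes higher and 11 lower in esophagus in TG mice, and 8 higher and 13 lower in CTR mice, since fewer genes were tested. Counting only symbols that end in the number gave 12 higher and 12 lower in TG mice, and 13 higher and 12 lower in CTR mice, since fewer genes were counted. Every probe on its own gave 28 higher and 23 lower. Leaving out each array in turn gave 20 to 22 higher and 19 lower in TG mice, and 22 to 23 higher and 19 lower in CTR mice. Within slides, comparing the organs whatever their genotype, 40 to 41 of the 41 genes called in CTR mice kept their direction on each of the 5 slides. Slides 1 to 4 held CTR arrays by which these genes were called, so agreement there is no independent evidence. Slide 5 held TG arrays only. Between genotypes and for the difference between organs, the count stayed at 0 under each setting that was run.

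Single values moved as follows, and the cause was not tested. Serpinb9 in TG mice was 0.06 with quantile normalization and -0.59 with normexp, where it passed (adjusted p = 0.0204). Serpina3b in TG mice was 0.49 with quantile normalization and 0.12 in the authors' deposited table, and passed with normexp at -0.66 (adjusted p = 0.00844). Serpinb9e passed with normexp at -0.93 in TG (adjusted p = 0.00412) and -0.60 in CTR mice (adjusted p = 0.0456). In CTR mice Serpina3b was -0.38 with normexp, -0.14 with a common floor, -0.01 with array weights, and -0.02 without the liver arrays TG3 and CTR3, a setting added after seeing the data, and leaving out 1 array at a time it ran from -0.08 (without liver CTR1) to 0.52 (without liver CTR2). Serpinb9e in CTR mice ran from -1.04 (without liver CTR3) to 0.00 (without esophagus CTR1). Serpinb6b passed in TG mice under 11 of 25 settings. Serpine2 in TG mice was 0.81 with the slide as a block (adjusted p = 0.0854). Between genotypes Serpini2 in esophagus was -0.05 with normexp and ran from -0.15 (without CTR3) to 0.79 (without CTR1), and Serpina3c in liver was 0.00 without TG3 and CTR3. With the mouse as a replicate block, 21 genes were higher and 19 lower in TG mice, and 22 higher and 19 lower in CTR mice, and Serpinb6b in TG mice was the call that changed; with the replicate number as a block, 0 passed between genotypes in either organ.

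With 3 mice per group the number of arrays limits the precision. The size of the organ differences varied with the processing. The clade a median in TG mice was -6.02 with normexp and -5.48 in the authors' deposited table, against -9.93. Many of these genes are at background in esophagus, and the part of background subtraction in this was not tested.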
